A study of Oryza sativa Japonica Group with 14 samples.

Results

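The peaks described here are the H3K4me3 peaks of rice inflorescence meristem (IM) that could be matched one to one between plants with RNA interference against SDG711 (SDG711 RNAi) and wild-type plants (WT), both of the DongJin background. A pair was formed where a peak of the SDG711 RNAi IM list and a peak of the WT IM list overlapped by at least 1 bp and neither overlapped a further peak of the other list. This gave 21121 pairs, which took in 92.3% of the 22878 SDG711 RNAi IM peaks and 95.2% of the 22183 WT IM peaks, out of 130467 peaks in the 8 lists of the series. The series also mapped H3K27me3 in IM of both genotypes and both marks in jmj703 IM, a T-DNA insertion line of JMJ703, and in the WT shoot apical meristem (SAM).

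Both groups were IM apices of 1 to 2 mm, dissected by hand from field-grown plants at the 10 to 12 leaf stage. Collection ran over 17 to 19 June for SDG711 RNAi and over 21 to 24 June for WT, so that genotype and harvest date cannot be told apart. About 400 plants were pooled for the collection of SAM and IM. Each group had 1 H3K4me3 library. There was therefore no spread between replicates and no test of any difference, and the intervals below cover counting error only, over tags or over peaks. The knockdown itself was not checked, because the RNA samples were not analysed here. The genome build was not given in the sources used here. Regions are therefore named by their deposited positions, without genes.

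H3K4me3 is a histone methylation that marks the start of transcribed genes, where it is deposited by trithorax-type methyltransferases. H3K27me3 is the mark of Polycomb repression, and SDG711 is a rice homologue of Enhancer of zeste, the catalytic subunit of Polycomb repressive complex 2. In plants, genes that control flowering and organ identity are classic targets of Polycomb, and at some loci both marks are found together. SDG711 methylates H3K27, so H3K4me3 is a mark that the targeted enzyme does not itself write.

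The H3K4me3 libraries were close in depth, with 17941001 filtered tags in SDG711 RNAi IM and 18452560 in WT IM. Of these tags, 41.1% lay inside peaks in SDG711 RNAi IM and 38.7% in WT IM. Outside the peaks, the mean density was 1.64 tags per kb per 1000000 filtered tags in SDG711 RNAi IM and 1.69 in WT IM. The pairs held 95.9% of the peak tags of SDG711 RNAi IM and 96.9% of those of WT IM. Their summits lay a median of 65 bp apart (quartiles 23 and 155 bp), and 62.7% of pairs had summits at most 100 bp apart. The shared sequence made up a median of 91.5% of the longer peak, and 93 pairs shared under 50% of it.

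The strength of H3K4me3 at paired peaks was nearly the same in both genotypes. Strength is given as tag density, the tags of a peak per kb of that library's own peak and per 1000000 filtered tags of the library. Its median over the pairs was 9.62 in SDG711 RNAi IM and 9.77 in WT IM. The ratio of SDG711 RNAi IM over WT IM had a median of 0.992, with quartiles of 0.917 and 1.07. The density was higher in SDG711 RNAi IM at 47.3% of the pairs. The log2 densities of both libraries correlated with a Pearson r of 0.930 across the 21121 pairs, a description in which the points share their libraries. The median ratio lay between 0.986 and 1.00 in each of the 12 chromosomes taken alone.

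The spread of this ratio was narrow. On the log2 scale its interquartile range was 0.23 and its SD across pairs 0.18. The counting error of a single pair, from the tags of both peaks, had a median of 0.12. The same measure had an interquartile range of 0.41 for jmj703 IM over WT IM and 0.36 for WT IM over WT SAM, with median counting errors of 0.18 and 0.15. The percentage of pairs past 1.5-fold in either direction was 0.317% for SDG711 RNAi IM over WT IM. It was 24.3% for jmj703 IM over WT IM and 24.9% for WT IM over WT SAM, whose ratios were also shifted as a whole, with medians of 1.29 and 1.34. The last 2 comparisons joined libraries of unequal depth, and all 3 used the WT IM library.

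**Figure D1:**
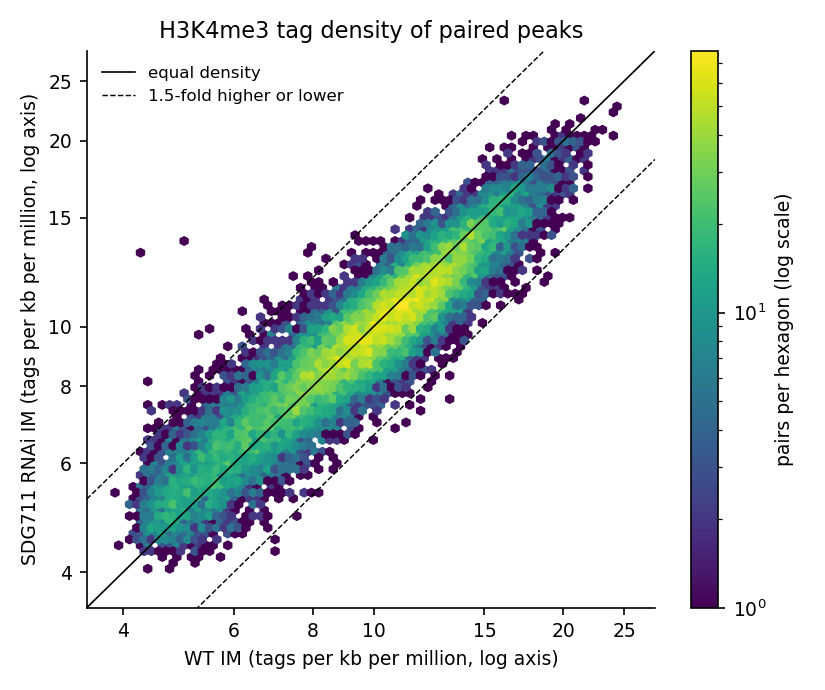
H3K4me3 tag density of the 21121 paired peaks, with SDG711 RNAi IM on the vertical axis and WT IM on the horizontal axis, both in tags per kb per 1000000 filtered tags on log axes. Colour gives the number of pairs in a hexagon on a log scale, the solid line is equal density and the dashed lines are 1.5-fold higher and lower. Few pairs leave the band: 48 lie above it and 19 below.

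A density at least 1.5-fold higher in SDG711 RNAi IM was found at 48 of the 21121 pairs, or 0.227%, and a density at least 1.5-fold lower at 19 pairs, or 0.0900%. The 48 denser pairs, chosen by a ratio that is high where the WT IM count is low, were weak peaks in WT IM. Their density ran from 6.87 to 13.7 in SDG711 RNAi IM (median 9.09) and from 4.30 to 8.41 in WT IM (median 5.44). They lay on all 12 chromosomes, and 4 of them overlapped WT IM H3K27me3 (8.33%, against 12.7% of all pairs). The 19 less dense pairs differed in another way. Their density had a median of 7.67 in SDG711 RNAi IM and 11.8 in WT IM, but their tags scaled to 1000000 filtered tags, without division by length, had a median ratio of 1.04. Of the 19, 17 were longer in SDG711 RNAi IM, with a median length ratio of 1.58, and 10 of the 19 had more depth-scaled tags in SDG711 RNAi IM. The counts depended on the processing. Scaled to tags inside peaks, 18 pairs were denser and 59 less dense, and with the background density subtracted 286 were denser and 65 less dense. With both lists restricted to a p of at most 1e-10, 29 were denser.

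The other H3K4me3 lists of the series were read at the 48 denser pairs. Of the 48, 18 overlapped a WT SAM H3K4me3 peak (37.5%, 95% Wilson interval 25.2 to 51.6%). Among 2927 pairs that were not 1.5-fold denser and whose WT IM density lay between the quartiles of the 48, 65.0% did (interval 63.3 to 66.8%), and of all pairs 89.9% did. In the jmj703 IM H3K4me3 list, 42 of the 48 had a peak (87.5%, interval 75.3 to 94.1%), against 60.8% of the 2927 (interval 59.0 to 62.6%) and 89.0% of all pairs. The 2927 were matched on WT IM density, which is part of the ratio that chose the 48, so a share above or below theirs is no finding about the 48. In jmj703 IM the share of the 48 was near that of all pairs. The shares were not tested, and the intervals treat neighbouring peaks as independent.

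The regions at the top of the density ranking were taken among 20362 pairs with at least 200 tags in both peaks together and at least 50% of the longer peak shared. Ranked regions here and below are extremes, and their counting intervals make no allowance for that choice. The first lay on chromosome 7 from 548225 to 550065 in SDG711 RNAi IM and from 548364 to 549340 in WT IM. It held 454 tags in SDG711 RNAi IM and 90 in WT IM, which gave densities of 13.7 and 4.99 and a ratio of 2.75 (95% counting interval 2.19 to 3.49). In jmj703 IM its H3K4me3 density was 17.7, and neither WT SAM nor any H3K27me3 list had a peak there. It was near the calling limit in WT IM, a low value that is part of the ratio that ranked it first. Of all pairs, 89.0% had a jmj703 IM peak and 89.9% a WT SAM peak.

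The next 3 regions showed the same combination of lists, whose share among all pairs is not given here. On chromosome 1 from 23213899 to 23215477 the density was 8.15 in SDG711 RNAi IM and 4.38 in WT IM, a ratio of 1.86 (interval 1.48 to 2.36). On chromosome 4 from 8334473 to 8335589 it was 9.68 in SDG711 RNAi IM and 5.22 in WT IM, a ratio of 1.85 (interval 1.45 to 2.38). On chromosome 1 from 13065861 to 13067294 it was 9.95 in SDG711 RNAi IM and 5.45 in WT IM, a ratio of 1.83 (interval 1.48 to 2.26). All 3 had a peak in jmj703 IM, with densities of 12.1, 11.7 and 19.5, and none in WT SAM or in an H3K27me3 list. The median density of the whole H3K4me3 list was 12.7 in jmj703 IM and 9.63 in WT IM.

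The remaining pair of top regions were long in SDG711 RNAi IM, at 2881 and 4106 bp, against 1600 and 3954 bp in WT IM. On chromosome 10 the peak ran from 15663151 to 15666031 in SDG711 RNAi IM, with 550 tags, and from 15663349 to 15664948 in WT IM, with 183 tags. The density ratio there was 1.72 (interval 1.45 to 2.04) and the length ratio 1.80. On chromosome 2 from 26767875 to 26771980 there were 983 tags in SDG711 RNAi IM and 577 in WT IM, a density ratio of 1.69 (interval 1.52 to 1.87). This last region had H3K27me3 in the SDG711 RNAi IM and jmj703 IM lists, but not in the WT IM list. A larger ratio existed at a pair that the ranking left out because 40.3% of the longer peak was shared, a region chosen after its values were seen. On chromosome 3 from 17809525 to 17811929 it held 571 tags in SDG711 RNAi IM, against 77 in the WT IM peak from 17809893 to 17810862, a density ratio of 3.08 (interval 2.42 to 3.96).

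At the bottom of the ranking, all 6 regions carried H3K4me3 in WT SAM, as did 89.9% of all pairs. The lowest ratio was 0.615 (interval 0.517 to 0.731), on chromosome 11 from 6394982 to 6396952 in SDG711 RNAi IM and from 6395043 to 6396330 in WT IM. The tags there were 257 in SDG711 RNAi IM and 281 in WT IM, over lengths of 1971 and 1288 bp. Fewer tags at nearly equal length were seen on chromosome 4 from 14186270 to 14187642, with 169 tags in SDG711 RNAi IM and 280 in WT IM and a density ratio of 0.638 (interval 0.524 to 0.775). On chromosome 9 from 162668 to 163643, 79 tags in SDG711 RNAi IM stood against 172 in WT IM, a ratio of 0.642 (interval 0.485 to 0.842).

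Strong peaks were also among them. On chromosome 5 from 26356268 to 26358796 the density was 11.9 in SDG711 RNAi IM and 18.5 in WT IM, a ratio of 0.642 (interval 0.573 to 0.720). The other two of the 6 overlapped WT IM H3K27me3 and are given with that class.

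**Figure D2:**
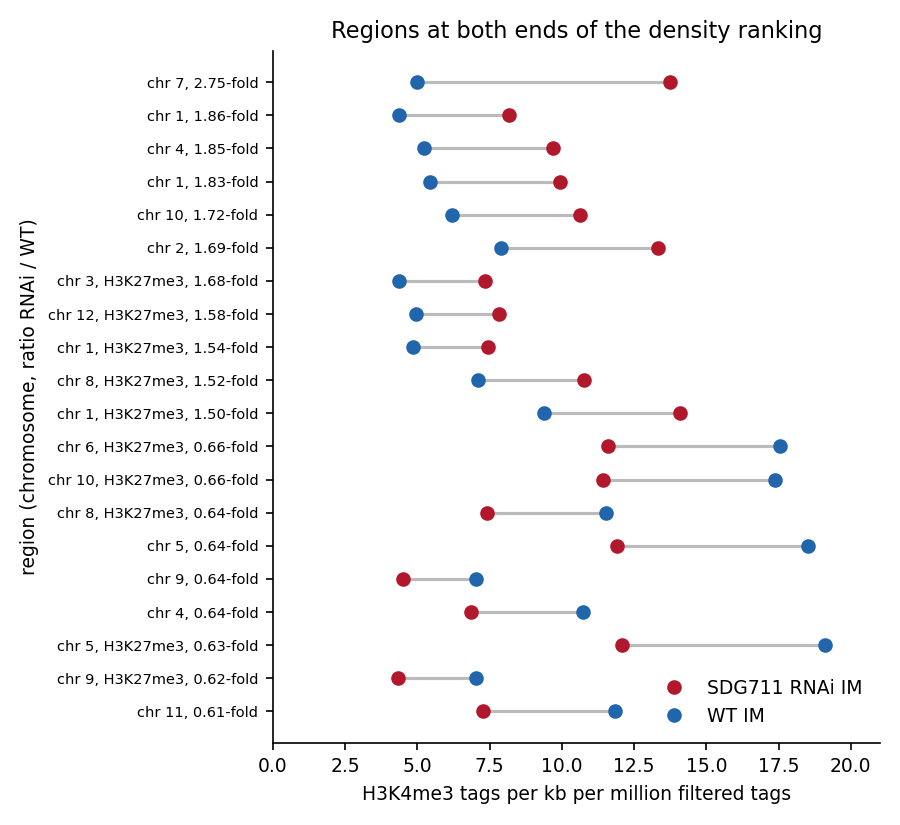
H3K4me3 tag density, in tags per kb per 1000000 filtered tags, of the 20 different regions at both ends of the density ranking over all pairs and over pairs with WT IM H3K27me3. Points are single libraries, with SDG711 RNAi IM in red and WT IM in blue, and each label gives the chromosome, whether WT IM H3K27me3 overlapped and the ratio. The region on chromosome 7 at 2.75-fold stands apart from the others, which lie between 0.615-fold and 1.86-fold.

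Paired H3K4me3 peaks were slightly longer in SDG711 RNAi IM. The median paired peak measured 1688 bp in SDG711 RNAi IM, against 1581 bp in WT IM. The length ratio had a median of 1.06, with quartiles of 1.00 and 1.13, and 75.6% of the pairs were longer in SDG711 RNAi IM. The median difference was 95 bp, with 43 bp at the edge of lower coordinate and 33 bp at the other edge. The SDG711 RNAi IM peak extended past the WT IM peak at both edges in 45.4% of pairs, and the WT IM peak past the SDG711 RNAi IM peak at both edges in 9.35%. In the 12 chromosomes the median length ratio lay between 1.05 and 1.06. With density nearly equal, the depth-scaled tags of a pair, without division by length, had a median ratio of 1.05 (quartiles 0.964 and 1.16). The share of tags inside peaks, 41.1% in SDG711 RNAi IM and 38.7% in WT IM, moved with the length, and its part in it was not tested.

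Larger changes of length were few. SDG711 RNAi IM peaks were at least 1.5-fold longer at 415 pairs, or 1.96%, and at least 1.5-fold shorter at 112 pairs, or 0.530%. A difference of over 1000 bp was found in 213 pairs towards longer and in 48 towards shorter peaks in SDG711 RNAi IM. Joined peaks were also more frequent in that direction: 144 SDG711 RNAi IM peaks each covered 2 WT IM peaks, whereas 96 WT IM peaks each covered 2 or 3 SDG711 RNAi IM peaks. The WT IM peaks so joined were a median of 56 bp apart.

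The 4 pairs with the largest length ratio, among 20447 with at least 200 tags, had no WT IM H3K27me3, as had 18436 of all 21121 pairs. On chromosome 1 the peak ran from 21687385 to 21689771 in SDG711 RNAi IM and from 21688135 to 21688924 in WT IM, with 198 and 66 tags in that order, a length ratio of 3.02 and a density ratio of 1.02. On chromosome 2 it ran from 4030198 to 4033716 in SDG711 RNAi IM, with 512 tags, and from 4030315 to 4031688 in WT IM, with 173 tags, a length ratio of 2.56. On chromosome 7 the peak from 3150901 to 3152907 in SDG711 RNAi IM was 2.91 times as long as the WT IM peak from 3152038 to 3152727, and it held 252 tags in SDG711 RNAi IM and 145 in WT IM, at densities of 7.00 and 11.4. The fourth, on chromosome 5 from 27778413 to 27781463 in SDG711 RNAi IM, held 420 tags in SDG711 RNAi IM and 297 in WT IM, with a length ratio of 2.50 and the lowest density ratio of all pairs, 0.581. All 4 thus held more tags in SDG711 RNAi IM.

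Of the 4 pairs with the smallest length ratio, 3 lay on chromosome 11. In one, the SDG711 RNAi IM peak from 12163394 to 12165491 measured 2098 bp with 250 tags, against 6032 bp and 814 tags in the WT IM peak from 12159587 to 12165618. WT IM H3K27me3 covered 99.5% of the WT IM peak, and H3K27me3 there was also shorter, with a peak of 2564 bp in SDG711 RNAi IM against 6000 bp in WT IM. The H3K27me3 density there was higher in SDG711 RNAi IM, at 10.6 against 7.14 in WT IM, and the SDG711 RNAi IM H3K27me3 library was the shallower. On chromosome 12, the SDG711 RNAi IM peak from 20452422 to 20454270 had 169 tags, against 549 tags in the WT IM peak from 20452308 to 20457461. WT IM H3K27me3 covered 89.1% of that WT IM peak, and SDG711 RNAi IM had no H3K27me3 peak there. The other two, on chromosome 11 from 5176169 to 5176689 and from 12064833 to 12065831 in SDG711 RNAi IM, had length ratios of 0.326 and 0.381 and no WT IM H3K27me3.

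Pairs were then divided by H3K27me3 of WT IM, the mark that SDG711 writes, to ask whether H3K4me3 at listed H3K27me3 peaks differed between the genotypes. Of the 21121 pairs, 2685 had a WT IM H3K4me3 peak that overlapped a WT IM H3K27me3 peak and 18436 did not. The overlap compares separate libraries and does not show both marks on the same chromatin. The median density of pairs with H3K27me3 was 9.99 in SDG711 RNAi IM and 10.2 in WT IM, a median ratio of 0.978 (95% order-statistic interval 0.973 to 0.983). For pairs without H3K27me3 it was 9.61 in SDG711 RNAi IM and 9.74 in WT IM, a median ratio of 0.994 (interval 0.992 to 0.996). The median length ratio was 1.05 with H3K27me3 (interval 1.05 to 1.06) and 1.06 without (interval 1.06 to 1.06). The differences between the classes were small beside the quartiles of the density ratio, which were 0.904 and 1.06 with H3K27me3 and 0.920 and 1.08 without.

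**Figure D3:**
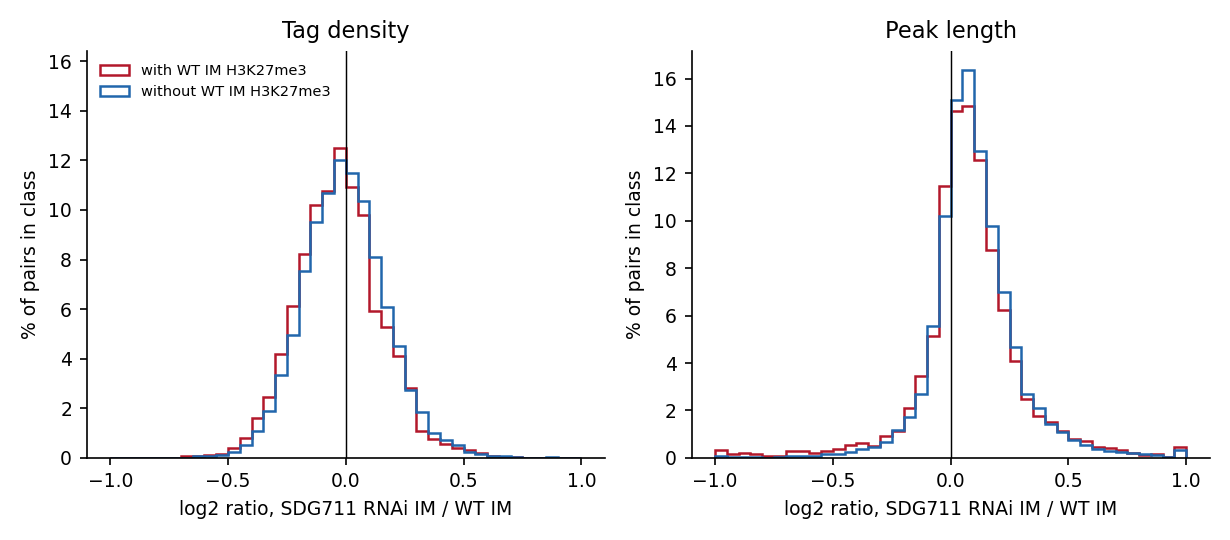
Distribution of the log2 ratio of SDG711 RNAi IM over WT IM for tag density (left) and peak length (right), as % of the 2685 pairs with WT IM H3K27me3 (red) and of the 18436 pairs without (blue), in steps of 0.05, with values beyond 1 in either direction placed in the outermost step. The curves nearly coincide, with density centred close to 0 and length above it, and pairs with H3K27me3 have the heavier tail towards shorter peaks. The class was set on the WT IM peak, which favours that direction.

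Pairs past 1.5-fold in density were rare in both classes. Of the 2685 pairs with H3K27me3, 4 were denser in SDG711 RNAi IM (0.149%, interval 0.0579 to 0.382%), next to 0.227% of all pairs. Without H3K27me3 there were 44 (0.239%, interval 0.178 to 0.320%). Less dense pairs numbered 5 with H3K27me3 (0.186%, interval 0.0796 to 0.435%), next to 0.0900% of all pairs, and 14 without (0.0759%, interval 0.0452 to 0.127%).

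The classes stood further apart in the share of shortened peaks, but the class was set on the WT IM peak. A longer WT IM call makes both an overlap and a shorter SDG711 RNAi IM peak more likely, so the class favours this direction. With H3K27me3 in the SDG711 RNAi IM list only, set on the SDG711 RNAi IM peak, 5.11% were at least 1.5-fold longer and 0.365% shorter. With H3K27me3 in neither list these shares were 1.86% and 0.374%. Of the pairs with H3K27me3, 43 were at least 1.5-fold shorter in SDG711 RNAi IM (1.60%, interval 1.19 to 2.15%), against 69 of those without (0.374%, interval 0.296 to 0.473%), next to 0.530% of all pairs. Depth-scaled tags were at least 1.5-fold lower at 55 pairs with H3K27me3 (2.05%, interval 1.58 to 2.66%) and at 72 without (0.391%, interval 0.310 to 0.491%), next to 0.601% of all pairs. Depth-scaled tags at least 1.5-fold higher were found at 3.24% of pairs with H3K27me3 and 3.05% of those without, next to 3.08% of all pairs. Most of the shorter pairs were weak: in the lowest of 5 equal bins of mean density, 33 of 825 pairs with H3K27me3 were shorter (4.00%, interval 2.86 to 5.56%) and 38 of 3400 without (1.12%, interval 0.815 to 1.53%). In the highest bin, 1 of 1069 with H3K27me3 and 3 of 3155 without were shorter.

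Overlap with H3K27me3 was concentrated at both ends of H3K4me3 strength. The 5 bins held 4224 or 4225 pairs each, in the order of the mean log2 density of both libraries. The median WT IM H3K4me3 peak was 1219 bp long in the lowest bin, 1556 bp in bin 3 and 1946.5 bp in the highest. A longer peak has more room for an overlap, and the part of length was not tested. WT IM H3K27me3 overlapped 19.5% of the pairs in the lowest bin and 8.14%, 5.18% and 5.40% of those in the next 3 bins. In the highest bin it overlapped 25.3% (interval 24.0 to 26.6%). The H3K27me3 peaks at these ends differed. At the lowest bin they had a median length of 2017.5 bp and a median density of 6.23, and the median pair was 95.9% covered. At the highest bin the medians were 1090 bp and 4.50, and 51.4% of the median H3K4me3 peak was covered. Over the whole WT IM H3K27me3 list the medians were 1815 bp and 5.80, so the H3K27me3 peaks at the highest bin were short and weak.

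The H3K27me3 at strong H3K4me3 peaks was seldom listed in SDG711 RNAi IM. Of the pairs with WT IM H3K27me3 in the lowest bin, 486 of 825 also overlapped an SDG711 RNAi IM H3K27me3 peak (58.9%, interval 55.5 to 62.2%). In the highest bin 231 of 1069 did (21.6%, interval 19.2 to 24.2%). The SDG711 RNAi IM H3K27me3 library had 10502005 filtered tags and the WT IM library 22887617, a gap in depth under which a peak lost from the list cannot be told apart from less H3K27me3.

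**Figure D4:**
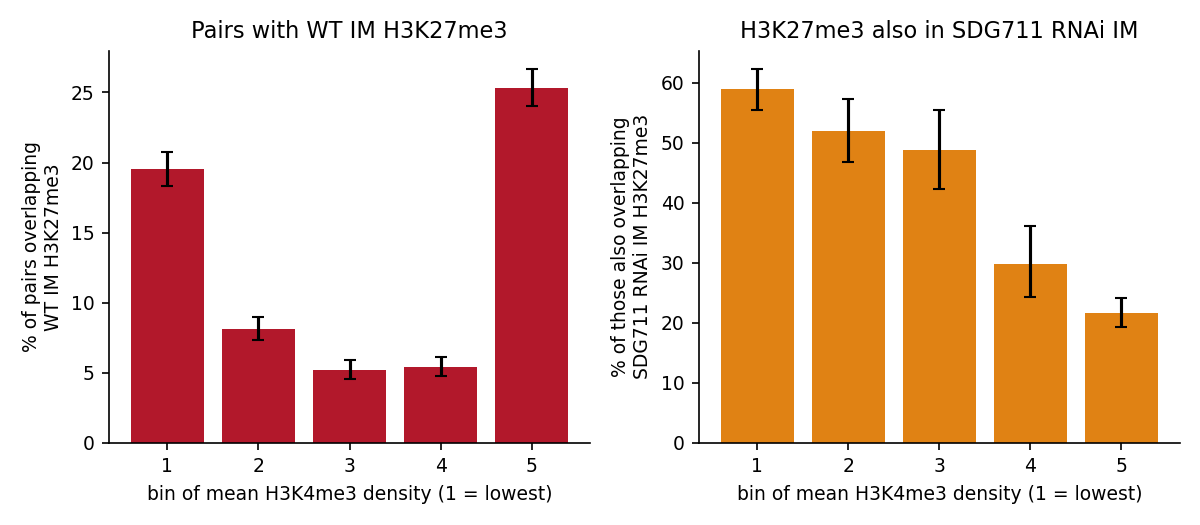
Percentage of pairs that overlapped WT IM H3K27me3 (left) and, of these, the percentage that also overlapped SDG711 RNAi IM H3K27me3 (right), in 5 equal bins of mean H3K4me3 tag density. Bars start at 0 and error bars are 95% Wilson intervals. The left bars are highest in bins 1 and 5, at 19.5% and 25.3%, and the right bars decline from 58.9% to 21.6%.

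The H3K4me3 ratio per kb declined with strength in both classes. Among pairs without WT IM H3K27me3, the median density ratio was 1.06 in the lowest bin and 0.964 in the highest. Among pairs with it, the ratio was 1.04 in the lowest bin and 0.943 in the highest (interval 0.934 to 0.951). In bin 3 both classes stood at 0.985. Depth-scaled tags, without division by length, had median ratios in the highest bin of 1.02 with H3K27me3 and 1.03 without. The median length ratio there was 1.07 in both classes. The share of strong peaks in a class therefore enters its overall median.

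Where H3K27me3 was listed in WT IM and not in SDG711 RNAi IM, H3K4me3 per kb was slightly lower in SDG711 RNAi IM, a direction that turned without division by length. The median density of the 1614 pairs with H3K27me3 in the WT IM list only was 11.97 in SDG711 RNAi IM and 12.9 in WT IM, a median ratio of 0.961 (interval 0.955 to 0.967). Their depth-scaled tags, without division by length, had a median ratio of 1.01 (interval 1.01 to 1.02). For the 1071 pairs with H3K27me3 in both lists it was 7.69 in SDG711 RNAi IM and 7.50 in WT IM, a median ratio of 1.01 (interval 1.00 to 1.02). None of the 1614 was at least 1.5-fold denser in SDG711 RNAi IM. A count of 0 allows a share of up to 0.186% by the 3-count limit and 0.237% by the Wilson interval, on either side of the 0.227% of all pairs, so a difference from all pairs was not detectable. Of the 1071, 4 were (0.373%, interval 0.145 to 0.956%).

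The ratio was lower for H3K27me3 in the WT IM list only than for both lists in each of the 5 bins of strength. In the lowest bin it was 1.03 for the WT IM list only (interval 1.02 to 1.05) and 1.04 for both lists (interval 1.03 to 1.05). In the highest bin it was 0.932 for the WT IM list only (interval 0.925 to 0.941) and 0.979 for both lists (interval 0.964 to 0.988). The highest bin, where WT IM H3K27me3 peaks were short and weak, held 838 of the 1614 pairs of the WT IM list only. The intervals of the classes overlapped in bins 1, 2 and 4 and did not in bins 3 and 5. None of these differences was tested. The 274 pairs with H3K27me3 in the SDG711 RNAi IM list only had a ratio of 1.01 (interval 0.985 to 1.02).

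**Figure D5:**
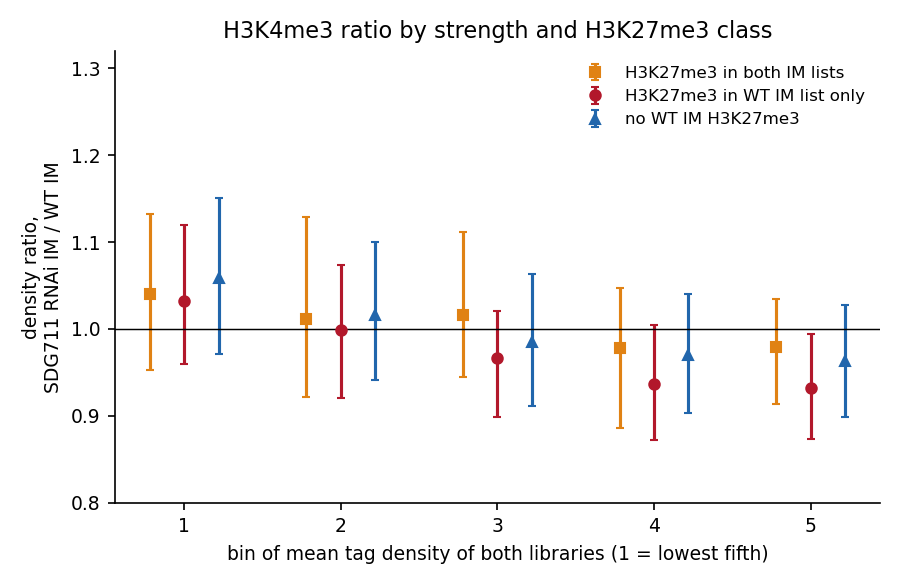
Ratio of H3K4me3 tag density, SDG711 RNAi IM over WT IM, in 5 equal bins of mean density for pairs with H3K27me3 in both IM lists (orange squares), in the WT IM list only (red circles) and for pairs without WT IM H3K27me3 (blue triangles). Points are medians and bars run between the quartiles over pairs. Medians are lower in bin 5 than in bin 1 in each class, and in bin 5 they are 0.979, 0.932 and 0.964.

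Where both marks were paired, the size of the H3K27me3 ratio showed next to no correlation with the H3K4me3 ratio. At 1123 pairs of H3K4me3, the WT IM peak lay on an H3K27me3 peak that was itself matched one to one between the genotypes, at 1109 different H3K27me3 peaks. The log2 density ratios of both marks had a Spearman rho of -0.014 and a Pearson r of -0.012 across these pairs, as a description. With these pairs in 4 equal groups by H3K27me3 ratio, in the group with the lowest ratios (median 1.01) the H3K4me3 ratio had a median of 1.02, and in the group with the highest (median 1.47) it was also 1.02. H3K27me3 ratios were mostly above 1 in this set, which holds only peaks that the shallower library could call.

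The ratio showed no steady trend with how much of the WT IM H3K4me3 peak H3K27me3 covered. It was 1.01 for the 316 pairs covered by up to 25%, 0.959 for 25 to 50% and 1.00 for 75 to under 100%. Pairs whose WT IM H3K4me3 peak was fully covered, 415 in number, were weak in WT IM and had a density ratio of 1.04 (interval 1.03 to 1.05). Those covered by 50 to 75%, 829 in number, had a ratio of 0.950 (interval 0.941 to 0.961), and their median density was 13.2 in SDG711 RNAi IM.

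The 5 regions with H3K27me3 and the highest density ratio had an H3K27me3 peak in the SDG711 RNAi IM list. Of all 2685 pairs with WT IM H3K27me3, 1071 had one in that list, and 58.9% did in the lowest bin of strength. The 5 regions also had one in jmj703 IM and WT SAM. No share over all pairs is given here for those lists, so no trait of the regions is read from them. The first, on chromosome 3 from 22978988 to 22980078, held 144 tags in SDG711 RNAi IM and 80 in WT IM, a ratio of 1.68 (interval 1.27 to 2.24). Its H3K27me3 density was 7.13 in SDG711 RNAi IM and 6.34 in WT IM. On chromosome 12 from 1452685 to 1453901 the H3K4me3 density was 7.83 in SDG711 RNAi IM and 4.95 in WT IM, a ratio of 1.58 (interval 1.23 to 2.05). In WT IM these were weak H3K4me3 peaks overlapping an H3K27me3 peak.

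Chromosome 1 held a further pair of these regions. From 11863493 to 11864546 the H3K4me3 density was 7.46 in SDG711 RNAi IM and 4.86 in WT IM, a ratio of 1.54 (interval 1.18 to 2.00). From 11245052 to 11247091 it was 14.1 in SDG711 RNAi IM and 9.38 in WT IM, with 515 and 338 tags in the same order. On chromosome 8 from 11759046 to 11761204 it was 10.8 in SDG711 RNAi IM and 7.10 in WT IM, a ratio of 1.52 (interval 1.31 to 1.75). H3K27me3 at that locus reached 11.8 in SDG711 RNAi IM and 9.60 in WT IM.

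Of the 5 regions with H3K27me3 and the lowest density ratio, 4 had no H3K27me3 peak in SDG711 RNAi IM, as had 1614 of all 2685 pairs with WT IM H3K27me3. On chromosome 9 from 18257824 to 18259222 there were 109 H3K4me3 tags in SDG711 RNAi IM and 166 in WT IM, a ratio of 0.617 (interval 0.480 to 0.790), and jmj703 IM had neither mark there. On chromosome 5 the peak ran from 1504291 to 1508720 in SDG711 RNAi IM, with 960 tags, and from 1505968 to 1508640 in WT IM, with 943 tags. The density ratio of 0.632 (interval 0.577 to 0.692) there went with a length ratio of 1.66.

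The same was seen on chromosome 10, where 557 tags in SDG711 RNAi IM from 17913469 to 17916188 stood against 550 in WT IM from 17913521 to 17915237, a density ratio of 0.658 (interval 0.583 to 0.741). On chromosome 6 from 6435507 to 6438403 the density was 11.6 in SDG711 RNAi IM and 17.5 in WT IM, a ratio of 0.660 (interval 0.591 to 0.738). The exception had H3K27me3 in all 4 libraries. On chromosome 8 from 28118335 to 28120303 it held 262 H3K4me3 tags in SDG711 RNAi IM and 409 in WT IM, a ratio of 0.642 (interval 0.548 to 0.752).

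Peaks without a partner were weaker and shorter than paired ones in both lists. The 1432 such peaks of SDG711 RNAi IM had a median density of 5.10 and a median length of 1094 bp, and the 690 of WT IM had 5.20 and 1190.5 bp. A p of at most 1e-10 was reached by 26.5% of the SDG711 RNAi IM peaks without a partner and by 17.1% of the WT IM ones, against 93.3% and 92.2% of paired peaks. They held 2.49% of the peak tags in SDG711 RNAi IM and 1.49% in WT IM.

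Lack of a partner was more frequent at H3K27me3. Of the SDG711 RNAi IM peaks that overlapped WT IM H3K27me3, 329 of 3083 had no WT IM partner (10.7%, interval 9.63 to 11.8%), against 1103 of 19795 of those that did not (5.57%, interval 5.26 to 5.90%). Of the WT IM peaks with WT IM H3K27me3, 161 of 2889 had no SDG711 RNAi IM partner (5.57%, interval 4.79 to 6.47%), against 529 of 19294 without it (2.74%, interval 2.52 to 2.98%). The excess was thus present in both directions, and the lower strength of many peaks with H3K27me3, shown above by bins, moved with it. Its part in the result was not tested.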

How the data were processed

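The 8 deposited peak lists were used, 1 for each ChIP library, and the 6 RNA samples were not analysed here. The authors ran MACS on every library by itself, per the file headers, with version 1.4.0rc2 on an alignment whose name marks duplicate removal, with no control library, a p cutoff of 1e-05 and an effective genome size of 401000000 bp. Per the submitters' processing notes, Bowtie2 2.1.0 and Trimmomatic 0.32 were among the tools, with no step stated. Per the file headers, the tags of a peak are raw counts, the fold enrichment is a ratio to the regional background of the same library, and the score is minus 10 times the log10 of the p. The score was used only as a filter. Lengths and positions are in bp as deposited.

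With Python 3.11.15, pandas 2.3.3, numpy 2.4.6 and scipy 1.17.1, peaks were paired one to one at an overlap of at least 1 bp, and tags were divided by length and by the filtered tags of the header. Each library counted tags in its own peak, so density falls where a peak is called longer at equal tags. Medians have 95% order-statistic intervals, shares Wilson intervals and single regions exact binomial intervals. Tags were taken as independent. Pairing was tested on simulated data, a copy of the WT IM list with some peaks removed and peak starts slightly moved. That copy held no joined or split peaks, so the test does not cover such cases. Named regions were the 6 highest and 6 lowest density ratios (at least 200 tags, reciprocal overlap of at least 50%), the 5 highest and 5 lowest with WT IM H3K27me3, and the 4 largest and 4 smallest length ratios. The rule named 28 different regions. The comparison, classes and rules were chosen with earlier results of these data known.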

Additional observations from a re-analysis of the deposited data

How the results depend on the processing

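Of 35 alternative values, 23 stayed within 1.5 times the reported count or within the reported interval of the median, 10 moved and 2 changed sign. The minimum of 100 tags in both peaks together removed no pair, since the lowest total was 117. Its values are among the 23, were the same by construction and carry no weight. The number of pairs (21198 and 18974, with 21121 by construction) and the median length ratios moved under none of the alternatives tried for them. The median log2 density ratio was -0.032 with H3K27me3 and -0.0084 without. Restricting both lists to p at most 1e-10 gave -0.045 and -0.015, scaling to tags inside peaks gave -0.12 and -0.094, and subtracting the background density gave -0.00053 without H3K27me3. Depth-scaled tags without division by length changed the sign, to 0.043 with H3K27me3 and 0.081 without, since SDG711 RNAi IM peaks were longer, and likewise the ratio of the class with H3K27me3 in the WT IM list only, to 1.01 in place of 0.961. In each of these settings the value with H3K27me3 lay below that without. The 48 denser pairs became 29 at p at most 1e-10, 18 when scaled to tags inside peaks and 286 with the background subtracted. The 19 less dense pairs became 59 when scaled to tags inside peaks and 65 with the background subtracted. The split between denser and less dense pairs therefore depends on the scaling, with 48 against 19 per filtered tag and 18 against 59 per tag inside peaks. No paired analysis was possible because each group had 1 ChIP library. The depth limits single pairs, and weak ones most: over all pairs the counting error of a ratio had a median of 0.12 on the log2 scale. It is larger where the tags are fewer.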
